A study of Mus musculus with 3 samples.

Results

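Imprinted genes, which are read only or mainly from the maternal or the paternal copy, some of them in certain tissues only, were measured in 3 mouse gastric cancers. Afp, the alpha-fetoprotein gene, was measured with them, and the cancers were set against normal gastric mucosa. The set held 36 listed genes, namely 35 genes of known imprinted domains and Afp, and was found on the arrays by gene name. It matched 35 of them, out of 31896 gene names on the array, with 63 probes. Rian, a noncoding RNA of the Dlk1-Dio3 domain, had no spot under its name.

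The tumours were primary gastric cancers of diffuse type, taken at 12 months of age from mice with the genotype Atp4b-Cre+;Cdh1loxP/loxP;Trp53loxP/loxP. The normal sample was 1 pool of gastric mucosae from 5 mice of the same age with the genotype Atp4b-Cre-;Cdh1loxP/loxP;Trp53loxP/loxP, so both groups carried the floxed alleles and only the tumour mice carried Cre. Stroma had been taken off the pooled mucosae in 30 mM EDTA, a step that the labels do not mention for tumours. Cre was driven by the promoter of Atp4b, the parietal cell proton pump subunit, and deletes Cdh1 (E-cadherin) and Trp53 (p53) in that lineage. Each tumour was hybridised in red (Cy5) on its own 2-colour array against an aliquot of the pool in green (Cy3), so the ratios leave out the spread among normal mice, and a dye effect cannot be told apart from a difference between tumour and pool.

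In mammals, imprinted genes lie in clusters where DNA methylation laid down in egg or sperm decides which parental copy is transcribed, often through a long noncoding RNA in the cluster. Many of them steer fetal and placental growth and are turned down in most organs after birth, and Afp is a secreted protein of fetal liver and yolk sac. The arrays read the sum of both alleles, so they bear on the amount of each transcript and not on which parental copy made it.

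All values below are log2 ratios of tumour over pool, given for tumours 1, 2 and 3 in that order, with the mean ± SD (n = 3), unless a signal is named. A gene counted as called, and is said to be higher or lower, when limma's test of the ratio against 0 gave a Benjamini-Hochberg adjusted p under 0.05 over all genes and the difference was at least 2-fold. Signals are normalised log2 intensities of 1 channel, and a signal was called dim when it was not well above the local background. Median centring, a setting cited below for comparison, sets the median of all gene spots on an array to 0 in place of loess. It put the median ratio of all genes tested at 0.77, against 0.05 with loess. Ratios, signs and calls given for it are therefore shifted upwards.

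H19 was the member with the largest ratio, 10.5-fold higher in tumours, and Afp followed at 8.38-fold. Gatm (3.86-fold, against a dim pool signal), Impact (2.81-fold) and Ascl2 (2.23-fold) were also higher. Slc22a18 was 5.03-fold lower, Mirg 2.16-fold lower and Snrpn 2.01-fold lower, and Igf2, the paternal neighbour of H19, was not called and had a dim signal in the pool on all 3 arrays.

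Of the 35 genes found, 32 had a probe bright enough for the test, while the probes of Zim1, Peg10 and Magel2 were not. Among the 32 tested members, 5 were called higher, against 9.33% of all genes tested, and 3 were called lower, against 9.68%. Together 25% of the tested members were called and 19% of the 19433 genes tested. The median ratio of the members was 0.17, and that of all genes 0.05. A further 6 members passed the adjusted p below the 2-fold limit, so that 14 passed at any size. Since a probe had to be bright in all tumours or on all pool aliquots to be tested, these counts describe the bright members only.

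**Figure D1:**
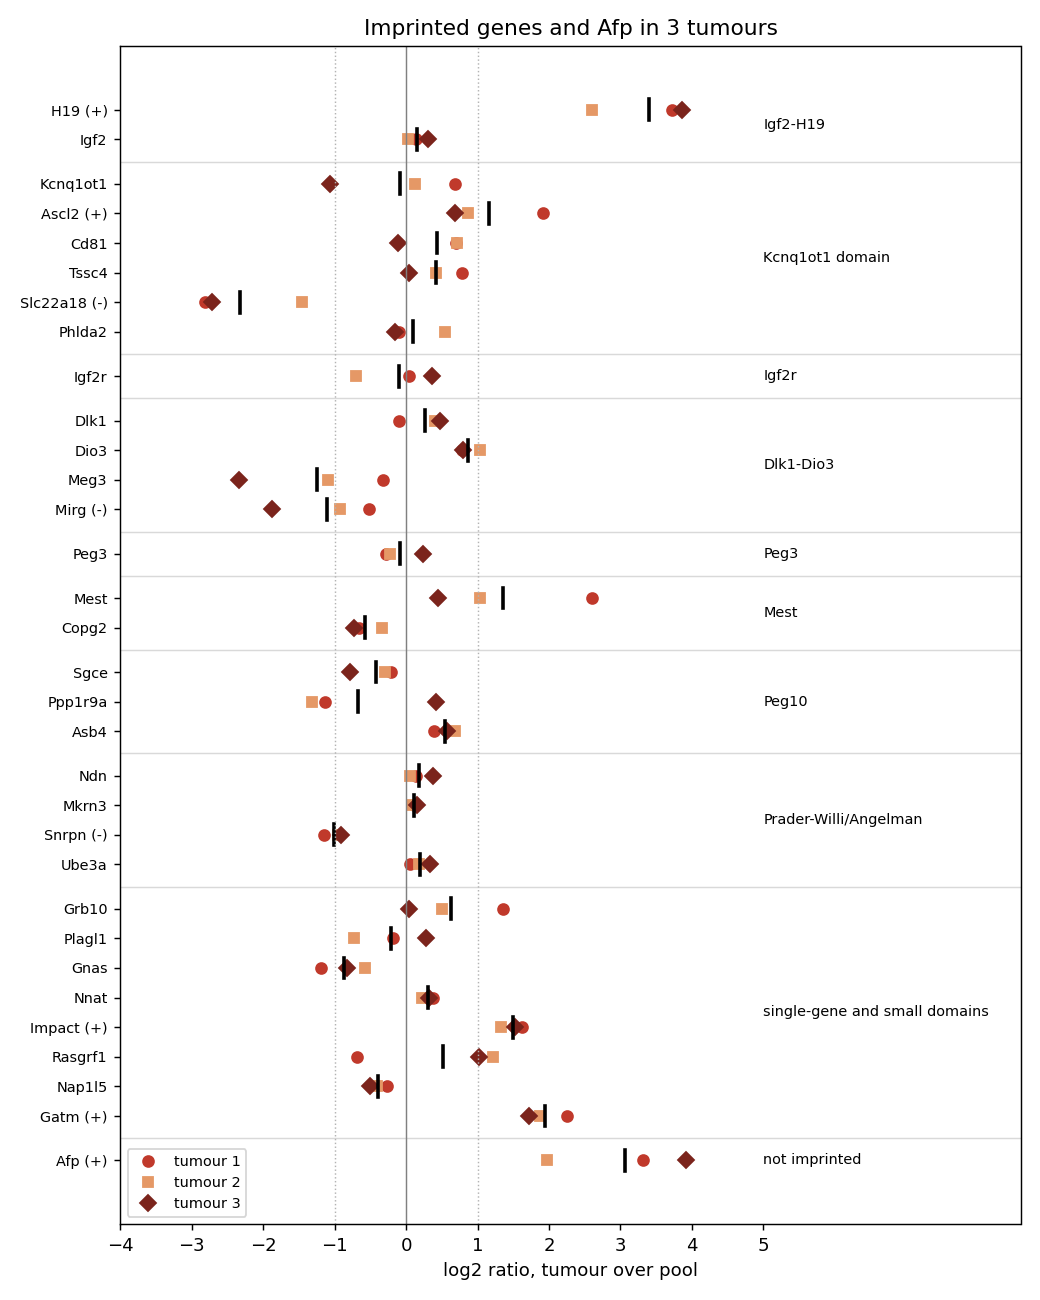
Log2 ratio of tumour over pool (horizontal axis) for each of the 32 tested members, grouped by domain. Circles, squares and diamonds stand for tumours 1, 2 and 3, the black bar for their mean, dotted lines for 2-fold, and (+) or (-) for genes called higher or lower; H19 and Afp lie farthest to the right and Slc22a18 farthest to the left.

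Probes of the noncoding RNAs H19, Meg3 and Mirg are printed because these transcripts make no protein and each value rests on which stretch was read. The 60 bases are those of the probe in the array's design, 5′ to 3′, in lower case with no part singled out, and the coordinates are in mm9.
H19 probe at chr7:149761492-149761551 (minus strand): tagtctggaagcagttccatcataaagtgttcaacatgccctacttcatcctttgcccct
H19 probe at chr7:149762417-149762476 (minus strand): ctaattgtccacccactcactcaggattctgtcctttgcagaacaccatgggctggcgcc
Meg3 probe at chr12:110799558-110799617 (plus strand): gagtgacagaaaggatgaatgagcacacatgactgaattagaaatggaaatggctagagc
Meg3 probe at chr12:110809678-110809737 (plus strand): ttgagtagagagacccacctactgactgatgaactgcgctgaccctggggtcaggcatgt
Mirg probe at chr12:110979653-110979712 (plus strand): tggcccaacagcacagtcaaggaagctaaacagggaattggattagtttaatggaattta
Mirg probe at chr12:110987569-110987628 (plus strand): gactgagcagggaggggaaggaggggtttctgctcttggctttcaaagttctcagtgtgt

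H19, Meg3, Rian, Mirg and the protein-coding Igf2 and Mest also carry microRNA hairpins within their RefSeq gene bounds (GRCm38). Mirg alone holds 10 hairpins with 19 mature products. The array read the host transcripts, other than Rian, and not these microRNAs. Those of H19, then miR-410-3p and miR-154-5p from separate hairpins of Mirg, and those of Mest follow. Their sequences come from a microRNA annotation and not from RefSeq. The seed (bases 2 to 8, which pairs with targets) is in capitals.
miR-675-5p: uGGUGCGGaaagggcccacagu
miR-675-3p: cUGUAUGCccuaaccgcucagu
miR-410-3p: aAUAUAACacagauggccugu
miR-154-5p: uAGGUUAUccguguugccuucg
miR-335-5p: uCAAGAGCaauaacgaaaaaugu
miR-335-3p: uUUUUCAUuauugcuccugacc
The 6 seeds all differ, and within Mirg only miR-453 and miR-496a-5p share one.

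In the Igf2-H19 domain, H19 is a maternally expressed long noncoding RNA, abundant in the embryo, and Igf2 a paternally expressed fetal growth factor that shares its enhancers. H19 signals were 11.39, 10.01 and 12.94 in tumours 1, 2 and 3, against 7.67, 7.40 and 9.08 in the pool aliquots on the same arrays. Every tumour lay above every pool aliquot. The ratios were 3.72, 2.61 and 3.86 (3.39 ± 0.69, adjusted p = 0.00201), which ranked H19 at place 92 of 19433 genes.

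The pool's H19 signal was itself uneven, although the same pool was on each array. Before normalisation and after subtraction of the local background, it was 69.5, 53.0 and 248 in pool aliquots 1, 2 and 3, so the highest was 4.68 times the lowest. The same quotient had a median of 1.11 over the 21993 spots well above background in all 3 aliquots, and only 10 of these spots, H19 included, reached 4.68. In 10 of these 10 spots the pool signal was highest on the array whose tumour signal was highest. The pool signal of H19 equalled 1.84%, 2.60% and 1.66% of the tumour signal on arrays 1, 2 and 3. The reason for this was not tested. The size of the H19 difference therefore rests on pool values that did not repeat, while its direction was the same on all arrays.

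The second H19 probe, 925 bases from the first, was dim in both channels on all 3 arrays and gave 0.12 ± 0.07, so the call rests on 1 probe. Igf2 signals were 6.20, 6.20 and 6.63 in tumours, against 6.06, 6.17 and 6.31 in the pool, close to the lowest signals counted as above background. Its ratios were 0.14, 0.02 and 0.31 (0.16 ± 0.15, adjusted p = 0.26), and across the settings tried the mean ran from -0.92 with spike-in centring to 1.11 with processed signals (adjusted p = 0.0654). Signals were thus near the detection limit in both, but well above background in all 3 tumours and in no pool aliquot. Igf2 had 1 probe, so a weak probe and a scarce transcript cannot be told apart. A difference was not detectable at this signal. Igf2r, the receptor that takes IGF2 up for breakdown in lysosomes, gave 0.04, -0.70 and 0.37 (-0.10 ± 0.55, adjusted p = 0.738), with tumour 2 apart from the others.

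**Figure D2:**
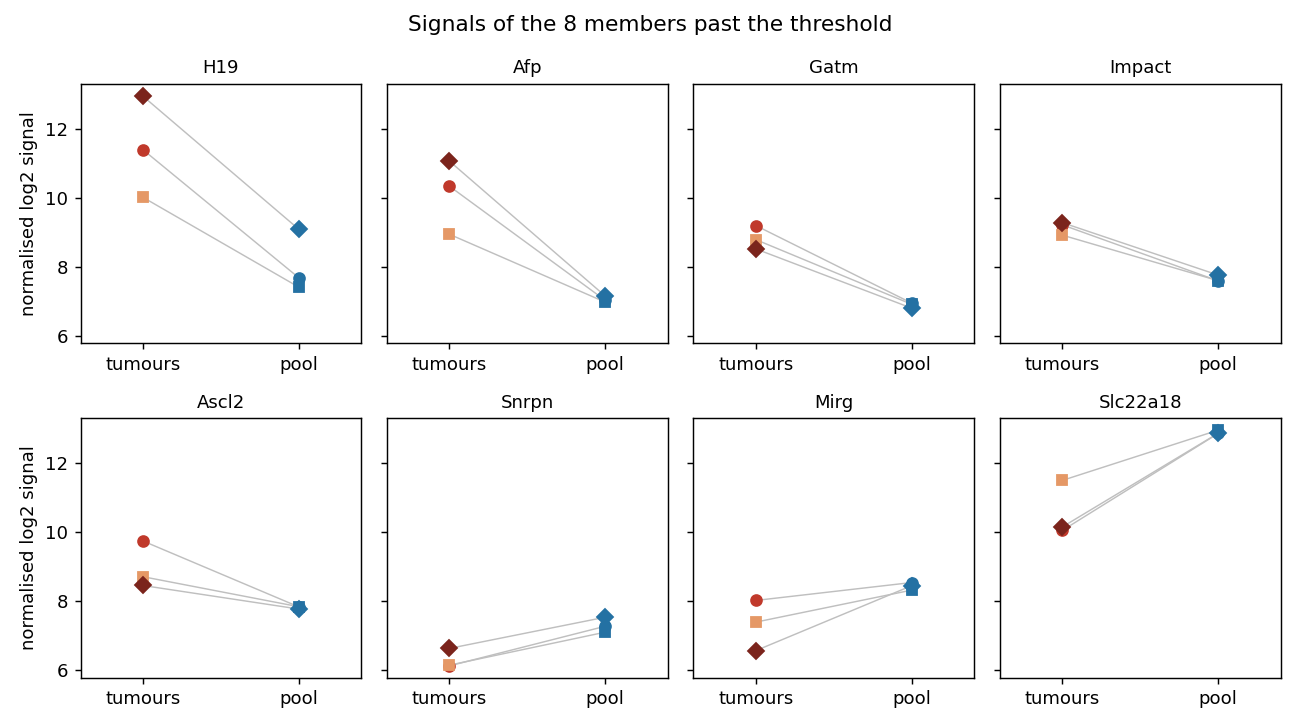
Normalised log2 signal (vertical axis) of the 8 called members in tumours (left, red shades) and in the pool aliquot of the same array (right, blue), with lines joining the channels of an array. The tumour and pool points do not overlap for any of the 8, and the pool points of H19 are spread far more widely than those of the others.

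Afp, on 10 replicate spots per array, had signals of 10.33, 8.94 and 11.06 in tumours, against 7.02, 6.97 and 7.14 in the pool. The pool aliquots were close together and all tumours stood above them, tumour 2 least. The ratios were 3.31, 1.97 and 3.92 (3.07 ± 1.00, adjusted p = 0.00581).

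Hepatocyte markers are given beside Afp because the gene is known from fetal liver. Of 6 such markers tested, 1 was called higher, Apob at 1.55, 0.45 and 1.89 (1.30 ± 0.75, adjusted p = 0.0275), with the tumours in the same order as for Afp. Apoa1 (-6.34) and Ttr (-5.20) were called lower, and both also had the tumours in that order. The median of the 6 was -1.48, -0.77 and 0.21 in tumours 1, 2 and 3. Their summed signal was 1749 to 4678 in tumours and 20234 to 21892 in the pool, and 1 of the 6 was dim in every pool aliquot. Alb, the serum albumin gene that neighbours Afp, gave -0.17, 0.44 and 1.76 and was above background in 2 of 3 tumours. Tumour 3 was highest, as for Afp, but tumour 1 lowest, where Afp was lowest in tumour 2. Tumour 3 was also highest for Apob, Apoa1, Ttr and Ahsg, but not for Apoh. The part of liver-type cells in the Afp difference was not tested.

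The Kcnq1ot1 domain, next to Igf2-H19 on distal chromosome 7, is held silent on the paternal copy by Kcnq1ot1, a long antisense RNA. Of its 6 tested members, 1 was higher and 1 lower, against 9.33% and 9.68% of all genes. Slc22a18, a membrane transporter read from the maternal copy, had signals of 10.06, 11.51 and 10.16 in tumours, against 12.87, 12.96 and 12.87 in the pool. All 3 tumours were lower, tumour 2 least, with ratios of -2.81, -1.46 and -2.72 (-2.33 ± 0.76, adjusted p = 0.00604). When arrays were centred on their median in place of loess, the ratio was -1.02 and no longer passed (adjusted p = 0.0588).

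Ascl2, a transcription factor of placental trophoblast and intestinal stem cells, had signals of 9.75, 8.71 and 8.46 in tumours, against 7.84, 7.84 and 7.78 in the pool. The ratios were 1.91, 0.87 and 0.68 (1.16 ± 0.66, adjusted p = 0.0272), with tumour 1 well above the others. The call did not hold without any 1 of the tumours: the ratio was 0.78 without tumour 1, under the 2-fold limit, and the adjusted p was 0.0652 without tumour 2 and 0.058 without tumour 3.

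Kcnq1ot1 itself gave 0.69, 0.12 and -1.06 (-0.09 ± 0.89, adjusted p = 0.856), so that tumour 3 lay below the pool and tumour 1 above it. A second probe, 6120 bases away, gave -0.18 ± 0.21. Cd81, a tetraspanin of the cell surface, gave 0.70, 0.71 and -0.12 (0.43 ± 0.47), and Tssc4, which encodes a protein of spliceosome assembly, 0.78, 0.42 and 0.04 (0.41 ± 0.37). Phlda2, which restrains placental growth, gave -0.11, 0.55 and -0.15 (0.10 ± 0.39). None of these passed the test, but with median centring Cd81 (1.91) and Tssc4 (1.59) did, and Cd81 also with spike-in centring (1.06). The 5 maternally read genes of the domain spanned from -2.33 to 1.16.

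In the Dlk1-Dio3 domain on chromosome 12, the noncoding RNAs Meg3, Rian and Mirg are read from the maternal copy and the protein-coding Dlk1 and Dio3 from the paternal one. Mirg, a host of microRNAs, was lower. Its signals were 8.03, 7.40 and 6.57 in tumours, against 8.55, 8.33 and 8.45 in the pool, and the ratios were -0.52, -0.93 and -1.88 (-1.11 ± 0.70, adjusted p = 0.0344). All tumours lay below all pool aliquots, tumour 3 lowest. The other Mirg probe, 7916 bases away, gave -0.79, -1.21 and -1.92 (-1.31 ± 0.57) and was also called, in the fit over probes (adjusted p = 0.014). In that fit 6 of the 44 member probes tested were called higher, against 8.44% of all probes, and 4 were called lower, against 9.12%.

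The Mirg call depended on single tumours and on the processing. Without tumour 2 the adjusted p was 0.0898 (ratio -1.20), without tumour 3 it was 0.0551 (-0.72), and with no filter on dim probes it was 0.0598. With median centring the ratio was -0.29, where the median of all genes was 0.77.

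Meg3, a long noncoding RNA, had signals of 10.89, 10.13 and 8.84 in tumours, against 11.21, 11.23 and 11.17 in the pool. The ratios of -0.32, -1.10 and -2.33 (-1.25 ± 1.01) just missed the threshold (adjusted p = 0.0615), although no tumour reached the pool. It passed when only probes well above background in both channels were tested (adjusted p = 0.0471) and without tumour 1 (-1.72, adjusted p = 0.0298). It did not pass without tumour 2 (-1.33, adjusted p = 0.145) or without tumour 3 (-0.71, adjusted p = 0.118), and median centring gave -0.054 (adjusted p = 0.911). Another Meg3 probe averaged -0.71. The Meg3 ratio that was tested for the gene and those of both Mirg probes were lowest in tumour 3 and highest in tumour 1.

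Dlk1, a membrane protein that holds back fat cell differentiation, gave -0.10, 0.41 and 0.48 (0.26 ± 0.32, adjusted p = 0.207). Dio3, which inactivates thyroid hormone, had signals of 7.39, 7.80 and 7.48 in tumours, against 6.61, 6.77 and 6.68 in a pool that was dim on all arrays. Its ratios of 0.78, 1.03 and 0.80 (0.87 ± 0.14) passed the adjusted p (0.00444). The fitted difference, 1.83-fold against the dim pool, did not reach the 2-fold needed for a call. It was called with processed signals (2.81), an offset of 0 (1.71) and median centring (1.40), and was 0.55 with spike-in centring, under the 2-fold limit. The 4 tested genes of the domain thus ran from -1.25 for Meg3 to 0.87 for Dio3.

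**Figure D3:**
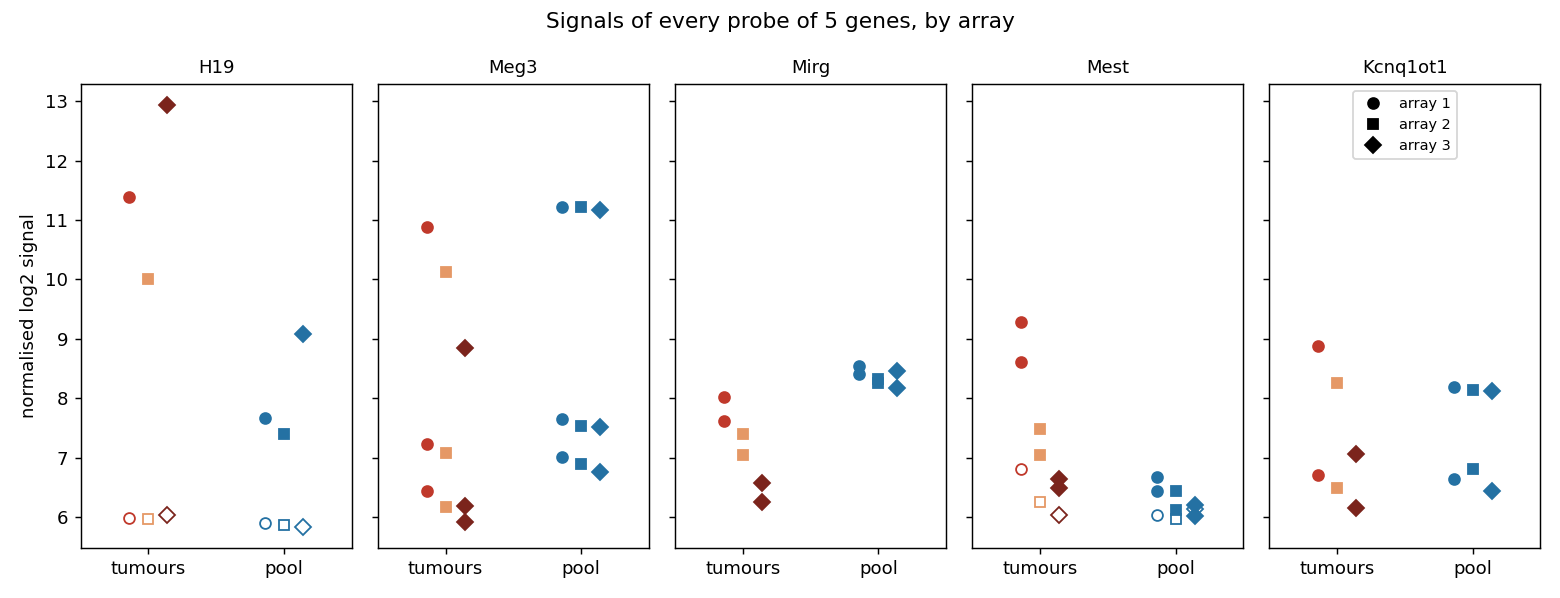
Normalised log2 signal (vertical axis) of every probe of H19, Meg3, Mirg, Mest and Kcnq1ot1 in tumours (left, red shades) and pool aliquots (right, blue), by array. Filled symbols are probes kept for the test and open ones those that were not. Tumour 3 (diamond) is lowest for all probes of Meg3, Mirg and Mest, and highest for the brighter H19 probe.

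In the Mest domain on chromosome 6, Mest, a paternally read hydrolase of embryonic mesoderm, had the largest SD of the ratio among the members. Before normalisation, the highest tumour signal was 12.9 times the lowest for Mest and 25.9 times for Rasgrf1. Mest signals were 9.28, 7.48 and 6.65 in tumours, against 6.68, 6.45 and 6.20 in a pool that was dim on all arrays. The ratios were 2.60, 1.03 and 0.45 (1.36 ± 1.11, adjusted p = 0.0626), so that tumour 1 stood far above the pool and tumour 3 little above it. That SD was larger than those of 98.3% of all genes. The other kept probe gave 2.17, 0.93 and 0.48 and was called in the fit over probes (1.19 ± 0.88, adjusted p = 0.049). With Feature Extraction's own processed signals, which set no offset on dim signals, Mest was called at 4.20 (adjusted p = 0.0079).

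Copg2, a coat protein gene of vesicle transport whose nearest probe lies 212 bases from Mest's on the opposite strand, gave -0.65, -0.33 and -0.73 (-0.57 ± 0.21, adjusted p = 0.0194), and its sign turned to 0.51 with median centring. A second Copg2 probe averaged -0.55.

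In the Peg10 domain, also on chromosome 6, no member was called (2 of 3 had an unadjusted p under 0.05). Sgce, a sarcoglycan, gave -0.21, -0.29 and -0.78 (-0.43 ± 0.31). Ppp1r9a, the actin-binding neurabin, gave -1.14, -1.32 and 0.42 (-0.68 ± 0.96), so tumours 1 and 2 lay below the pool and tumour 3 above it, and it was called lower only without tumour 3 (-1.23, adjusted p = 0.0167). Asb4, a SOCS box protein, averaged 0.55 ± 0.15 against a dim pool (adjusted p = 0.0153) and turned to -0.19 when arrays were centred on spike-in controls. Both Peg10 probes were dim in all channels. Peg3, a zinc finger gene of proximal chromosome 7, gave -0.28, -0.23 and 0.23 (-0.09 ± 0.28).

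In the Prader-Willi/Angelman domain, Snrpn, a splicing ribonucleoprotein gene read from the paternal copy, had signals of 6.13, 6.15 and 6.63 in tumours, against 7.28, 7.11 and 7.54 in the pool. The ratios of -1.15, -0.96 and -0.91 (-1.00 ± 0.13, adjusted p = 0.00299) were close together and only just past the 2-fold limit. Another kept probe averaged -0.49, the median over probes was -0.75, median centring gave -0.70 and leaving out tumour 1 gave -0.93, all under that limit. The ratio was larger with processed signals and in the authors' deposited table (-2.44 in both), with an offset of 0 (-1.95) and with spike-in centring (-1.55), and it was called in each. Ube3a, a ubiquitin ligase read from the maternal copy in neurons, gave 0.06, 0.18 and 0.33 (0.19 ± 0.14), and was called higher with median centring (1.07, adjusted p = 0.00278). Ndn, which encodes necdin, averaged 0.19 ± 0.17 and Mkrn3, a RING finger gene, 0.12 ± 0.04, both near the detection limit.

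**Figure D4:**
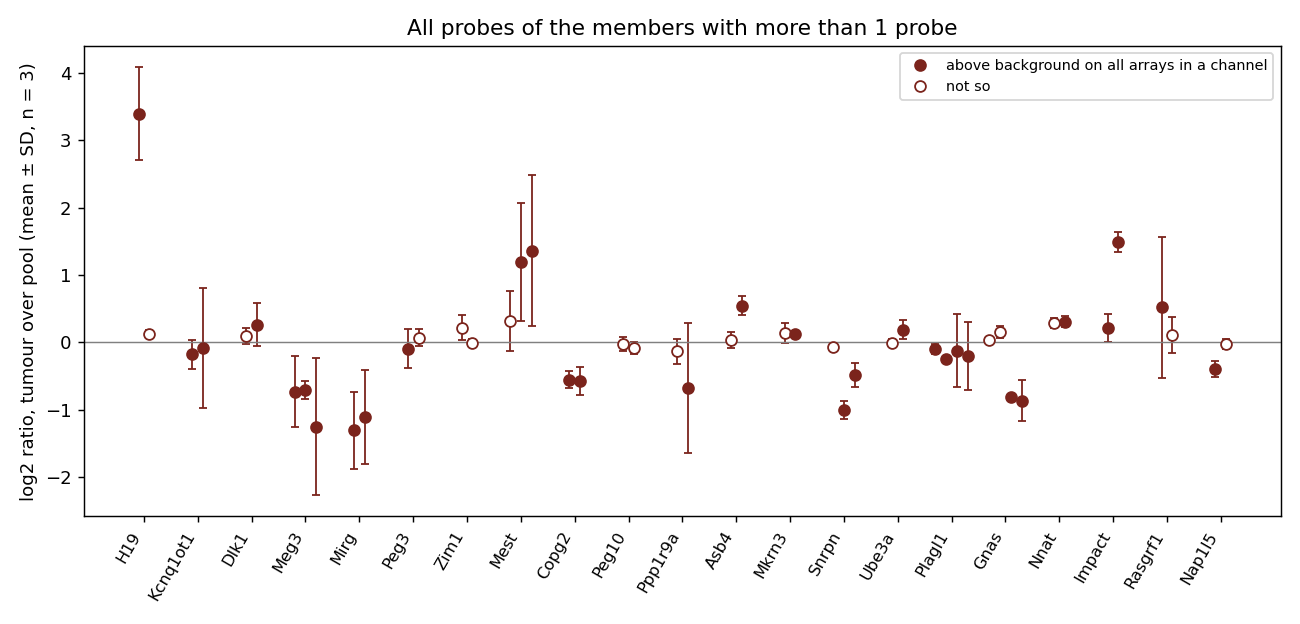
Mean log2 ratio of tumour over pool ± SD over 3 tumours (vertical axis) for each probe of the 21 members with more than 1 probe. Filled points are probes kept for the test and open points those too dim for it; the probes of Mirg, Meg3 and Copg2 lie on the same side of 0, while those of H19 and Impact differ widely.

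Among members in domains of 1 or few genes, Gatm and Impact were higher and alike in all tumours. Gatm, which makes the precursor of creatine and is read from the maternal copy in placenta, had signals of 9.19, 8.78 and 8.51 in tumours, against 6.94, 6.91 and 6.79 in a dim pool. The ratios were 2.25, 1.88 and 1.72 (1.95 ± 0.27, adjusted p = 0.00137). Impact, a regulator of the amino acid starvation response, had signals of 9.21, 8.91 and 9.27 in tumours, against 7.58, 7.59 and 7.75 in the pool, and ratios of 1.63, 1.32 and 1.52 (1.49 ± 0.15, adjusted p = 0.00138). A dimmer Impact probe averaged 0.22, and the median of both probes, 0.85, was under the 2-fold limit.

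Grb10, an adaptor that restrains insulin and IGF receptor signalling, gave 1.36, 0.50 and 0.04 (0.63 ± 0.67, adjusted p = 0.123). Rasgrf1, an exchange factor for Ras, gave -0.68, 1.22 and 1.03 (0.52 ± 1.05, adjusted p = 0.346) and was called higher only without tumour 1 (1.12, adjusted p = 0.0106). Plagl1, a zinc finger gene, gave -0.18, -0.72 and 0.28 (-0.21 ± 0.50), and its other 3 probes averaged -0.10, -0.25 and -0.12. None of the 3 genes was called, but with median centring Grb10 was (1.32, adjusted p = 0.0164) and Plagl1 turned to 0.98.

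Gnas, which encodes the stimulatory G protein alpha subunit, gave -1.19, -0.58 and -0.82 (-0.86 ± 0.31, adjusted p = 0.0117), and its sign turned to 0.67 with median centring. It was called lower without tumour 2 (-1.01, adjusted p = 0.0246). A second kept Gnas probe averaged -0.82, and the other 2 were dim. Nnat, a small membrane protein gene, averaged 0.31 ± 0.08 (adjusted p = 0.0495) near the detection limit and turned to -0.82 with spike-in centring. Nap1l5, a relative of nucleosome assembly proteins, averaged -0.39 ± 0.12 (adjusted p = 0.0313), with 1 of 3 tumours above background. It was called lower with processed signals (-2.13), an offset of 0 (-1.19) and spike-in centring (-1.49).

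Sorted by the copy listed as read, 3 of 14 tested maternal genes were higher and 2 lower, with a median of 0.14, while 1 of 15 paternal genes was higher and 1 lower, with a median of 0.16. For genes such as Gatm (placenta) and Ube3a (neurons) that listing holds in certain tissues only. Which copy was read in these stomach samples was not measured. Over all genes 9.33% were higher and 9.68% lower, and with so few members in each class the difference between the classes was not tested. Grb10 and Gnas, read from either copy depending on tissue or transcript, were not called.

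The members differed among tumours, with a median SD of 0.34, against 0.19 for all genes. The ratio was highest in tumour 1, then in tumour 2 and lowest in tumour 3 for 10 of the 32 tested members (31.2%) and for 19.6% of all genes. The 10 were Mest, Grb10, Meg3, Mirg, Kcnq1ot1, Ascl2, Tssc4, Sgce, Nap1l5 and Gatm, an order noticed after the values were seen. Fibroblast markers were among several marker lists with the same order, with medians of 3.25, 2.90 and 1.50 in tumours 1, 2 and 3, and 7 of 8 were called higher. Their summed signal was 47269 to 156635 in tumours and 16022 to 17666 in the pool, with no marker dim throughout. Stroma had been taken off the mucosae in 30 mM EDTA, which the labels do not mention for tumours. The part of stromal cells in these ratios was not tested, and in bulk tissue fewer cells of a type and less RNA per cell cannot be told apart.

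The same order of medians was found in 7 of the 13 marker lists, namely those of fibroblasts, endothelium (1.40, 0.91 and 0.65), surface mucous cells (-4.05, -4.58 and -5.25), chief cells (-6.11, -6.54 and -6.57), endocrine cells, adipocytes (0.12, -0.25 and -0.36) and mesothelium (4.89, 4.09 and 4.07), so it was not particular to stromal markers. Smooth muscle markers, of which 4 of 6 were higher, had medians of 0.49, 2.56 and 1.55, lowest in tumour 1 as Rasgrf1 was, and summed signals of 28714 to 80761 in tumours and 13414 to 14420 in the pool. The 2 skeletal muscle markers tested had medians of 0.36, 1.52 and 2.73. Endocrine markers, 5 of 6 lower, had medians of -3.35, -3.40 and -3.99, and summed signals of 36485 to 43220 in tumours and 327999 to 399494 in the pool. All 5 parietal markers were lower, with medians of -6.22, -6.77 and -6.67. The part of these cells in the members' ratios was not tested.

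The targeted genes were checked in the same fit. Cdh1 was lower at -4.62, -3.27 and -4.83 (adjusted p = 0.00186), Trp53 gave -0.21 ± 0.15 (adjusted p = 0.161), and Atp4b was lower at -6.83. Whether the Trp53 probe lies in the deleted part was not tested. Between 64.0% and 66.8% of spots were well above background in tumours and between 52.5% and 54.2% in the pool, and none was saturated.

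Genes that act with the members were read from 4 lists. Of 16 genes of the IGF axis, 12 were tested, with a median of 0.19. Of these, 4 were higher, against 9.33% of all genes, and 2 lower, against 9.68%. The IGF-binding protein Igfbp3 was higher (2.71, 2.31 and 1.09, adjusted p = 0.011), as was Igfbp6 (2.08, 1.76 and 2.04, adjusted p = 0.000949), while Igfbp2 was lower (-3.48, -2.11 and -2.58, adjusted p = 0.00341). The other genes called were Igfbp4 and Igfbp5, higher, and Igf1r, the receptor that signals for IGF1 and IGF2, lower at -0.92, -1.23 and -1.70. These last 3 were named after their values were seen.

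Of 19 genes that set or keep imprints, 17 were tested, 2 were higher and none lower by limma (2 lower at an unadjusted p under 0.05), with a median of 0.26. The share higher was near the 9.33% of all genes. They were Uhrf1, which brings maintenance methylation to newly copied DNA, at 1.67, 1.46 and 1.46 (1.53 ± 0.13, adjusted p = 0.00117), and Dnmt3b, a de novo DNA methyltransferase, at 1.16, 0.73 and 1.28 (1.06 ± 0.29, adjusted p = 0.00623). No tumour overlapped 0 for either gene.

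Of 44 other imprinted genes, 27 were tested, with a median of -0.16. Among them 3 were higher, near the 9.33% of all genes, and 5 lower, against 9.68%. Within the Kcnq1ot1 domain and its surroundings, Kcnq1, a potassium channel gene that contains the Kcnq1ot1 promoter, was lower at -3.03, -1.16 and -3.20 (adjusted p = 0.0139), and Cdkn1c, a maternally read inhibitor of the cell cycle, was lower at -1.77, -2.32 and -2.22 (adjusted p = 0.00131). Tnfrsf23, a decoy receptor gene, was higher at 1.95, 2.65 and 1.14 (adjusted p = 0.0099). Tumour 2 was nearest to the pool for Kcnq1, as it was for Slc22a18.

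Of 18 fetal and oncofetal genes, 14 were tested, with a median of 0.64. Among them 5 were higher, against 9.33% of all genes, and 1 lower, against 9.68%. Anxa1, an annexin, was higher at 2.65, 4.09 and 3.23 (adjusted p = 0.00235), and Clu, a secreted chaperone, at 2.52, 3.03 and 3.09 (adjusted p = 0.000829). Ttr, the transthyretin gene of liver and of endocrine cells, was lower at -5.28, -5.57 and -4.77 (adjusted p = 0.000458), the opposite direction from Afp. Ttr is also among the hepatocyte markers.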

How the data were processed

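Spot intensity values (mean signal and median local background) were deposited as Agilent Feature Extraction output, version 10.7.3.1 per the file headers and 9.5.3 per the submitters' processing notes. Probe coordinates are in mm9, per the file headers. Per the file headers, a log10 ratio sets red processed signal over green. In the value table the authors deposited log2 ratios of tumour over pool, within 0.01 of the scanner ratio at 99.8% or more of its filled probes, with no further centring and with blanks at 48.3 to 49.6% of probes whose rule is not stated in the sources at hand. Per the labels, 250 ng of RNA with an integrity number above 7 was labelled.

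From the intensities, background was corrected (normexp, offset 50), ratios were normalised by loess within each array (control spots at weight 0) and outlier-flagged spots left out (157, 167 and 190 per array), with limma 3.58.1 in R 4.3.3. The offset pulls the ratios of dim probes towards 0. Spots of a probe were averaged, and channel signals come from loess with Aquantile. A probe was kept if its red signals, or its green signals, were well above background on every array, and the brightest kept probe stood for its gene. limma's moderated test (lmFit, eBayes; two-sided) set each mean ratio against 0, and p-values were adjusted by Benjamini-Hochberg across 19433 genes, or across 24163 probes. Names came from a RefSeq table (GRCm38) for 26055 of 39429 probes, and members from the file's gene names. For Gatm and Dio3, dim in the pool, raising the pool to the lowest signal above background left the difference unchanged. No lower bound is therefore given, and these differences are open to dye bias. The test was tried on simulated data.

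The labels name the tumours as separate samples, and p-values measure the spread among these 3, except with spike-in centring. In that setting the adjusted p followed the size of the mean ratio alone, as for Mest (0.90, adjusted p = 0.0170) and Meg3 (-0.90, adjusted p = 0.0167). Its calls, such as those of Cd81, Snrpn and Nap1l5, therefore do not reflect the spread of each gene among tumours. All arrays were on 1 slide, so no batch could be tested, and the number of arrays limits precision. The members and lists were chosen with earlier results of these data known. Values are given for every member called or above background in both channels, and outside them for Cdh1, Trp53, Atp4b and up to 3 called genes of a list with the largest absolute log2 ratio; Alb, Igfbp4, Igfbp5 and Igf1r were named after their values were seen. Other background corrections, centrings, filters, probe choices, the authors' values and leaving out each tumour were tried. The sequence of 1 Meg3 probe is not reported here.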

Additional observations from a re-analysis of the deposited data

How the results depend on the processing

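Each ratio already sets a tumour against the pool aliquot on its own array. The pool was the only other sample and came from other mice, so tumours could not be paired with normal tissue of the same mouse. H19, Afp and Gatm stayed called in every alternative that gave them a value (H19 at 3.16 to 4.51, Afp at 2.64 to 4.58). With 5 members called higher and 3 lower, 1814 genes higher and 1882 lower (49.1% higher), and a median of 0.17 for members and 0.05 for all genes, other settings gave the following. Centring on the array median, which put the median of all tested genes at 0.77, gave 12 members higher and 0 lower (3 lower members at an unadjusted p under 0.05 by limma), 7747 genes higher and 556 lower (93.3% higher), 13 member probes higher and 0 lower against 6 and 4, 31 genes of the related lists higher and 2 lower against 14 and 8, and a member median of 0.73. It turned the sign of Copg2 (0.51), Gnas (0.67), Igf2 (-0.067), Igf2r (1.07, adjusted p = 0.00892, then called), Kcnq1ot1 (0.80), Mkrn3 (-0.090), Plagl1 (0.98), Ppp1r9a (0.27) and Sgce (0.37). Processed signals gave 11 members, 13 member probes and 3738 genes higher, 8 member probes and 3079 genes lower, a member median of 0.39, and -0.040 for Ube3a. An offset of 0 gave 9 members, 10 member probes and 3192 genes higher, 9 member probes lower and a median of 0.40. Both of these also called dim members such as Asb4, Dio3, Mest and Nnat higher and Nap1l5 lower. Spike-in centring (median of all genes -0.08) gave 2795 genes higher, 9 member probes lower and a member median of -0.12, and turned Asb4 (-0.19), Dlk1 (-0.071), Igf2 (-0.92), Igf2r (0.23), Mkrn3 (-0.94), Ndn (-0.41), Nnat (-0.82), Phlda2 (-0.30) and Plagl1 (0.13). The authors' values (median of all genes -0.10) gave 7 member probes lower, a member median of -0.12 and -0.040 for Ube3a. Requiring both channels above background gave a member median of -0.086. Leaving out 1 tumour gave 4 to 5 members higher and 3 lower, 1661 to 1686 genes higher and 1777 to 1921 lower, 4 to 5 member probes higher and 3 to 4 lower, 12 to 14 related genes higher and 7 to 8 lower, and a member median of 0.14 to 0.21. Signs turned for Peg3 (-0.26 to 0.0028), Igf2r (-0.33 to 0.20), Phlda2 (-0.13 to 0.22), Plagl1 (-0.45 to 0.050) and Kcnq1ot1 (-0.47 to 0.40). The 3 members called lower when 1 tumour was left out were not the same each time. Slc22a18 was always among them, Meg3 only without tumour 1, Gnas only without tumour 2 and Ppp1r9a only without tumour 3. The cause of these changes was not tested. Signals near background limit what can be seen for Igf2, Asb4, Mkrn3, Nnat, Nap1l5, Ndn and Mest.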
